A study of Mus musculus with 8 samples.

Results

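The genes described here are 10 members of the BCL2 family, which sets whether a cell lives or dies by apoptosis. They were taken as the rows of the raw count tables whose symbol was Bcl2, Bcl2l1, Mcl1, Bcl2a1a, Bcl2a1b, Bcl2a1d, Bax, Bak1, Bcl2l11 or Bbc3, which gave 10 of 53735 genes. All 10 were found in both tables, and all 10 passed edgeR's filter on low counts in each experiment and in both together. Bcl2a1a passed in experiment 1 only through the WT libraries.

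Bulk RNA-seq was carried out on bone marrow derived macrophages (BMDMs) of male mice at 6 months of age. All mice lacked Apoe and all were infused with Ang II by osmotic minipump for 7 days, after which their marrow was cultured for 7 days to obtain macrophages. The comparisons used 4 groups of 2 libraries each, WT (Mkl1+/+, Apoe-/-) and KO (Mkl1-/-, Apoe-/-) in experiment 1 and the same genotypes in experiment 2. No saline-infused group was analysed here, so every value belongs to marrow exposed to Ang II, and the Mkl1 deletion was present in all cells of the KO mice rather than in macrophages alone. The question was how loss of MKL1, a coactivator of serum response factor, changed macrophage gene expression.

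BCL2 family proteins meet at the outer mitochondrial membrane. Survival members bind and hold the effectors BAX and BAK1, which otherwise form pores and release cytochrome c. BH3-only members such as BIM and PUMA carry the death signal by occupying the survival members or by activating the effectors. MCL1 is known for its rapid turnover, and the BCL2A1 genes are NF-κB targets that myeloid cells induce on inflammatory stimulation.

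The mouse carries several near-identical copies of Bcl2a1, and the counts of Bcl2a1a, Bcl2a1b and Bcl2a1d depend on telling them apart. Their start regions are shown because they carry the same feature as the transcripts, which is that few bases differ between the copies. Each sequence below runs from 250 bases before to 50 bases after the RefSeq start on GRCm38.p6, and capitals mark, within the stretch that all 3 windows cover, the bases that differ among the copies or are absent from one of them.
Bcl2a1a, chr9:88956670-88956969, plus strand: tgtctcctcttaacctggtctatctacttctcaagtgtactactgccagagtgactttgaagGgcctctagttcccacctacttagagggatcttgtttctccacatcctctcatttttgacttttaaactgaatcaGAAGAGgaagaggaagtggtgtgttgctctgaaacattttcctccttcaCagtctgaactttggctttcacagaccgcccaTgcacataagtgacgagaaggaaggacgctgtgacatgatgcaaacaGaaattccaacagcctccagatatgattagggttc
Bcl2a1b, chr9:89199023-89199322, plus strand: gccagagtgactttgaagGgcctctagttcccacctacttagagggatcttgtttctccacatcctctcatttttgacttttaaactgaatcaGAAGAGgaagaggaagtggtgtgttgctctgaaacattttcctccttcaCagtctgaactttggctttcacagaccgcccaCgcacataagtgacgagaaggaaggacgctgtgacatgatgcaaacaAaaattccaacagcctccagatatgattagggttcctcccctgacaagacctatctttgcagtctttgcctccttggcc
Bcl2a1d, chr9:88731801-88732100, minus strand: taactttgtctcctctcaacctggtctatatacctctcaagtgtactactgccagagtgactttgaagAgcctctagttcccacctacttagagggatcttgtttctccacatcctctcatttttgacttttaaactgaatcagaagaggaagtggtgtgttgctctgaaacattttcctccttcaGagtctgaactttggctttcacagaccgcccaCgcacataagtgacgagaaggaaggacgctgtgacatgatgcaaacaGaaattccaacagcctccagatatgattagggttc
The windows of Bcl2a1a and Bcl2a1b were 99.2% identical over 256 aligned bases. Bcl2a1d was 98% identical to Bcl2a1a over 294 bases and 98.8% identical to Bcl2a1b over 250 bases. Of 256 columns that all 3 windows covered, 10 held a difference. In the transcripts, 69.0% of the 50-base words of Bcl2a1a, 57.6% of those of Bcl2a1b and 79.5% of those of Bcl2a1d also occurred in another Bcl2a1 transcript. For 100-base words the shares were 43.5%, 31.1% and 54.7%. How the counting treated reads that match several copies is not given in the sources used here, so the split of counts among the 3 genes is uncertain and their sum is given beside them.

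The 10 members lie on 6 chromosomes of GRCm38. In GENCODE M21, Bcl2 spans chr1:106538178-106714274 on the minus strand, Bcl2l1 chr2:152780668-152831728 on the minus strand, and Mcl1 chr3:95658788-95663176 on the plus strand. The Bcl2a1 genes lie at chr9:88956900-88962419 for Bcl2a1a, chr9:89199209-89207827 for Bcl2a1b and chr9:88723285-88731914 for Bcl2a1d. Bax spans chr7:45461697-45466898 and Bak1 chr17:27019810-27029009, both on the minus strand. Bcl2l11 spans chr2:128126038-128162547 and Bbc3 chr7:16308393-16318205, both on the plus strand. Exons of other annotated genes cover part of 4 members. Gm29094 covers 49.1% of the exon bases of Bcl2a1b and Gm45808 covers 12.2% of those of Bax, each on the same strand. Ggnbp1 covers 25.5% of Bak1 and D630008O14Rik 6.10% of Bcl2, each on the opposite strand. The library kit kept strand, but the strand setting of the counting is not given in the sources used here. Ggnbp1 itself held 20 to 72 counts per library, against at least 2760 for Bak1.

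Libraries held 33977799 to 41584540 counts, and the WT median was 37169467 against 39546150 for KO. Mkl1, the deleted gene, was measured at 25.1 and 27.2 CPM (counts scaled to the size of the library) in WT and 20.3 and 22.0 in KO of experiment 1, and at 24.9 and 29.3 in WT and 14.5 and 10.6 in KO of experiment 2. It was lower in KO in experiment 1 (log2 fold change −0.41, adjusted p = 0.00286 by the quasi-likelihood test of edgeR, adjusted by Benjamini-Hochberg) and in experiment 2 (−1.16, adjusted p = 0.0228), and the fall differed between the experiments (adjusted p = 0.0245). Transcript thus remained in every KO library, and whether the counted exons include the deleted part is not given in the sources used here. Over 14418 genes, the spread (SD) of log2 differences was smallest, at 0.41, for the pair formed by WT of experiment 1 with KO of experiment 2, and was 0.84 to 0.98 for the other pairs of groups. Every comparison of KO with WT rests on the labels as given, and whether any library carries the wrong label was not tested beyond the level of Mkl1. Among the genes described below, all 4 KO libraries lay below all 4 WT libraries for Pmaip1, Fas, Cflar, Birc3, Casp1 and Vdac2. For Bnip3l, Casp9 and Casp6 all 4 KO libraries lay above all 4 WT libraries. These genes were picked from the same data, and the share of all genes that separate so was not counted, so they do not test the labels. Replicate libraries differed more in experiment 2, with a chi-square per gene of 67.4 in WT and 80.4 in KO, than in experiment 1, with 15.9 and 12.0. Macrophage markers were abundant in every library, with a summed level of 15730 to 35520 CPM over 10 genes, led by Lyz2. Of these 10 genes, 3 were lower and 6 higher in KO of experiment 1, and 2 were lower and 3 higher in experiment 2. Adgre1 (−2.13 and 0.92), Itgam (−1.05 and 1.35) and Csf1r (0.80 and −1.27) passed the threshold in opposite directions in the first and second experiment, and their part in the results of the members was not tested. The summed level per library was 0.331 to 1.49 CPM over 10 neutrophil markers, led by S100a8, 3.02 to 7.68 CPM over 8 lymphocyte markers, led by Cd79b, and 0.532 to 1.40 CPM over 5 dendritic cell markers. S100a8 was counted 54 and 34 times in WT and 9 and 10 times in KO of experiment 1. It passed the filter there through WT alone, so no p is given for it. Cd79b was lower in KO of experiment 1 (log2 fold change −1.11, adjusted p = 0.00286 by edgeR). Cd4, the other lymphocyte marker tested, was higher there (1.02, adjusted p = 0.0232). Fibroblast markers summed to 220.0 and 285 CPM over 9 genes in KO of experiment 1 and to 3.26 to 18.2 CPM in the other libraries, with Col1a2 the most abundant. In these bulk samples fewer cells of a type and less RNA per cell cannot be told apart.

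Mcl1 was by far the most abundant member. Compared per length of exon, its median level over the 8 libraries was 261 CPM per kilobase, with a range of 169 to 335. Bax followed at a median of 61.1 (53.4 to 65.6), Bak1 at 39.0 (33.4 to 59.0) and Bcl2l1 at 32.2 (23.6 to 36.0). Lower levels were held by Bcl2a1b at 15.1 (5.19 to 42.0), Bcl2l11 at 7.92 (5.58 to 9.54), Bbc3 at 7.40 (3.70 to 8.96), Bcl2a1d at 6.12 (0.456 to 18.2), Bcl2a1a at 3.08 (0 to 16.6) and Bcl2 at 2.18 (1.32 to 3.50). The range of Mcl1 did not overlap that of Bax, while every later neighbour in this order overlapped the one before it. The plot of levels per kilobase shows that the Bcl2a1 genes spread most between libraries and Bax least. Bcl2, the founding member of the family, had the lowest median of the 10 per length, although in KO of experiment 1 the mean levels of Bcl2a1a (0.016 CPM per kilobase) and Bcl2a1d (0.548) lay below its own (1.65).

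In experiment 1, 7 of the 10 members differed between KO and WT, 1 of them, Bcl2a1a, being a gene that had to differ because it passed the filter through WT alone. Without it the count was 6 of 9. Lower in KO were the survival genes Bcl2, Bcl2l1, Bcl2a1a and Bcl2a1d and the effector Bax, and higher were the survival gene Mcl1 and the BH3-only gene Bcl2l11. Of 14976 genes tested in this experiment, 28.4% were lower and 28.2% higher in KO past the same threshold (adjusted p under 0.05), so calls were common among all genes and the members' count was not far from the background. In experiment 2, 1 of the 10 members differed, Bcl2, which was higher in KO. Of 14567 genes tested there, 8.58% were lower and 7.72% higher. The median log2 fold change of the 10 members was −0.23 in experiment 1 (0.02 over all genes) and 0.03 in experiment 2 (0.01 over all genes). The median size of the change was 0.32 for the members and 0.41 for all genes in experiment 1, and 0.72 and 0.35 in experiment 2.

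**Figure D1:**
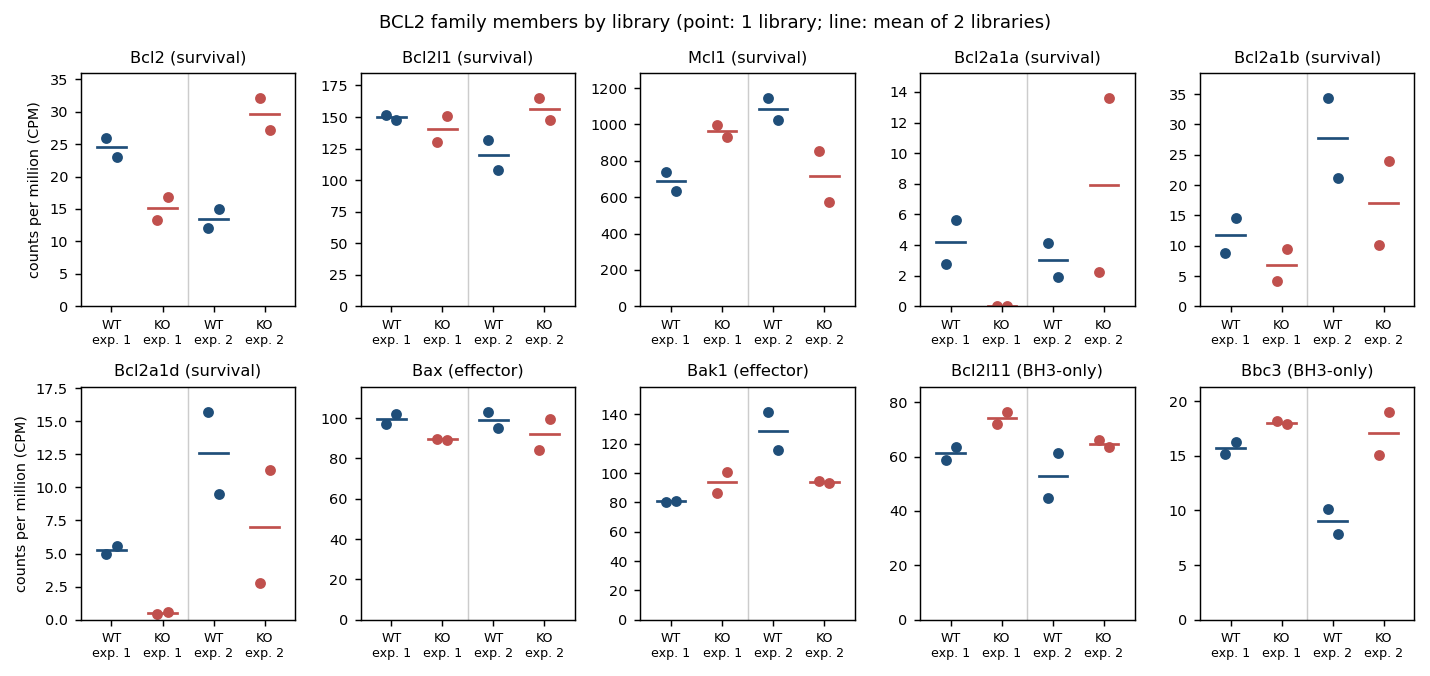
CPM of each member in each library, on axes that start at 0. Each point is 1 library (blue WT, red KO), the line is the mean of 2 libraries, and experiments 1 and 2 stand left and right of the grey line. Bcl2 and Mcl1 move in opposite directions between WT and KO in the 2 experiments, while the KO mean of Bax lies below and that of Bcl2l11 above the WT mean in both.

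Bcl2, whose protein holds BAX and BAK1 in check, changed in both experiments and in opposite directions. It was measured at 26.0 and 23.0 CPM in WT and 13.3 and 16.9 CPM in KO of experiment 1, and at 12.1 and 14.9 CPM in WT and 32.1 and 27.1 CPM in KO of experiment 2. WT and KO libraries did not overlap in either experiment, KO being low in the first and high in the second. The log2 fold change was −0.81 ± 0.13 (SE, n = 2 per group, adjusted p = 0.00118 by edgeR) and 1.08 ± 0.16 (adjusted p = 0.0178). The difference between these changes was 1.87 ± 0.22 (adjusted p = 0.000788). Bcl2 was the only member past the threshold in both experiments, and among 14190 genes tested in both, 6.52% were past it in opposite directions and 4.49% in the same direction. The call in experiment 2 was lost without KO replicate 7 (0.94, adjusted p = 0.0622) and without KO replicate 8 (1.21, adjusted p = 0.0543).

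Mcl1, which encodes a short-lived survival protein, stood at 741 and 635 CPM in WT and 995 and 930.4 CPM in KO of experiment 1. In experiment 2 it stood at 1144 and 1026 CPM in WT and 853 and 576 CPM in KO. The groups did not overlap in either experiment, and the order of WT and KO was the reverse of that of Bcl2. Mcl1 was higher in KO of experiment 1 (log2 fold change 0.38 ± 0.10, adjusted p = 0.0113 by edgeR) and measured −0.66 ± 0.24 in experiment 2 (adjusted p = 0.123), where DESeq2 put it past the threshold (adjusted p = 0.0371). Without WT replicate 2 the change in experiment 1 was 0.24. With 1 library left out, the change in experiment 2 ranged from −0.98 (without KO replicate 7) to −0.39 (without KO replicate 8). In a fit of all 8 libraries as 4 groups the call in experiment 1 was lost (adjusted p = 0.153) and that in experiment 2 gained (adjusted p = 0.0375). The difference between the experiments was −1.05 ± 0.28 (adjusted p = 0.0204), and it missed the threshold without WT replicate 2, WT replicate 3, KO replicate 5 or KO replicate 6 (adjusted p of 0.0821, 0.0649, 0.0800 and 0.0531).

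Bcl2l1, which encodes the survival protein BCL-XL, differed little. Its level was 152 and 148 CPM in WT and 130.4 and 151 CPM in KO of experiment 1, with overlapping groups, and 132 and 108 CPM in WT and 165 and 148 CPM in KO of experiment 2, where KO was above WT in every library. The log2 fold change was −0.20 ± 0.07 in experiment 1 (adjusted p = 0.0476 by edgeR) and 0.32 ± 0.17 in experiment 2 (adjusted p = 0.243). The call in experiment 1 was lost with DESeq2 (adjusted p = 0.0633) and with upper-quartile scaling (−0.08, adjusted p = 0.347). It was also lost with at least 10 counts in every library (−0.17, adjusted p = 0.0869 by edgeR). The same held without any of WT replicate 1, WT replicate 2 or KO replicate 5 (−0.17, −0.25 and −0.11). The difference between the experiments, 0.50 ± 0.20, did not pass the threshold (adjusted p = 0.0770), but did so without a filter (0.51, adjusted p = 0.0111) and without WT replicate 3 (0.72, adjusted p = 0.0155).

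The Bcl2a1 genes gave the largest differences among the members, in KO of experiment 1. Bcl2a1a was counted 116 and 192 times in WT and 0 times and 1 time in KO of that experiment. At a floor of 3 counts per library this made it at least 51.7-fold lower in KO. Since it passed the filter there through the WT libraries alone, this is given as a description with no p. Over the KO libraries of experiment 2, in contrast, it was counted 93 and 559 times, against 162 and 67 times in WT, so the groups overlapped. Its log2 fold change there was 1.30 ± 0.89 (adjusted p = 0.358) and turned to −0.48 without KO replicate 8. The difference between the experiments rests on the same 0 and 1 counts and is likewise given without a test.

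Bcl2a1d was likewise lowest in the KO libraries of experiment 1. It was measured at 4.98 and 5.59 CPM in WT and 0.393 and 0.553 CPM in KO of experiment 1, from 207 and 190 counts against 14 and 21, with no overlap. In experiment 2 it was measured at 15.7 and 9.49 CPM in WT and 2.81 and 11.3 CPM in KO, with overlap. The log2 fold change was −3.57 ± 0.24 (adjusted p = 1.12e-05 by edgeR) in the first and −0.92 ± 0.67 (adjusted p = 0.387) in the second experiment. With 1 library left out, the value in experiment 2 ranged from −2.22 (without KO replicate 8) to −0.24 (without KO replicate 7). The 2 experiments were also compared for this gene. The difference between them, 2.64 ± 0.89 (adjusted p = 0.0484), missed the threshold when any library other than KO replicate 7 was left out, with limma-voom (adjusted p = 0.167) and with at least 10 counts in every library (adjusted p = 0.0510).

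Bcl2a1b, the most counted of the 3, did not pass the threshold in either experiment. It was measured at 8.80 and 14.6 CPM in WT and 4.24 and 9.43 CPM in KO of experiment 1, and at 34.3 and 21.2 CPM in WT and 10.1 and 24.0 CPM in KO of experiment 2. WT and KO overlapped in both. The log2 fold changes were −0.87 ± 0.50 (adjusted p = 0.233) and −0.78 ± 0.47 (adjusted p = 0.305, edgeR). With 1 library left out they ranged from −1.56 to −0.42 in experiment 1 and from −1.52 to −0.29 in experiment 2.

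Summed over the 3 genes, the counts were 689 and 879 in WT and 165 and 380 in KO of experiment 1, and 2127 and 1144 in WT and 625 and 2011 in KO of experiment 2. WT was above KO in experiment 1 without overlap, while the groups overlapped in experiment 2. The sum had a log2 fold change of −1.63 ± 0.48 (adjusted p = 0.0643 by edgeR) and −0.52 ± 0.58 (adjusted p = 0.577), so that neither experiment passed the threshold for the sum. The share of the sum that was assigned to Bcl2a1a was 16.8% and 21.8% in WT of experiment 1, with exact Clopper-Pearson 95% intervals of 14.1% to 19.8% and 19.2% to 24.7%. In KO of experiment 1 it was 0% and 0.263%, with upper bounds of 2.21% and 1.46%. In experiment 2 it was 7.62% and 5.86% in WT and 14.9% and 27.8% in KO. These intervals cover counting error only. Bcl2a1b held 91.5% and 94.2% of the sum in KO of experiment 1 and 49.1% to 66.6% elsewhere, so the makeup of the sum as well as its size set those 2 libraries apart. Fibroblast markers were also high in those 2 libraries, as given above, and their part in these differences was not tested.

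**Figure D2:**
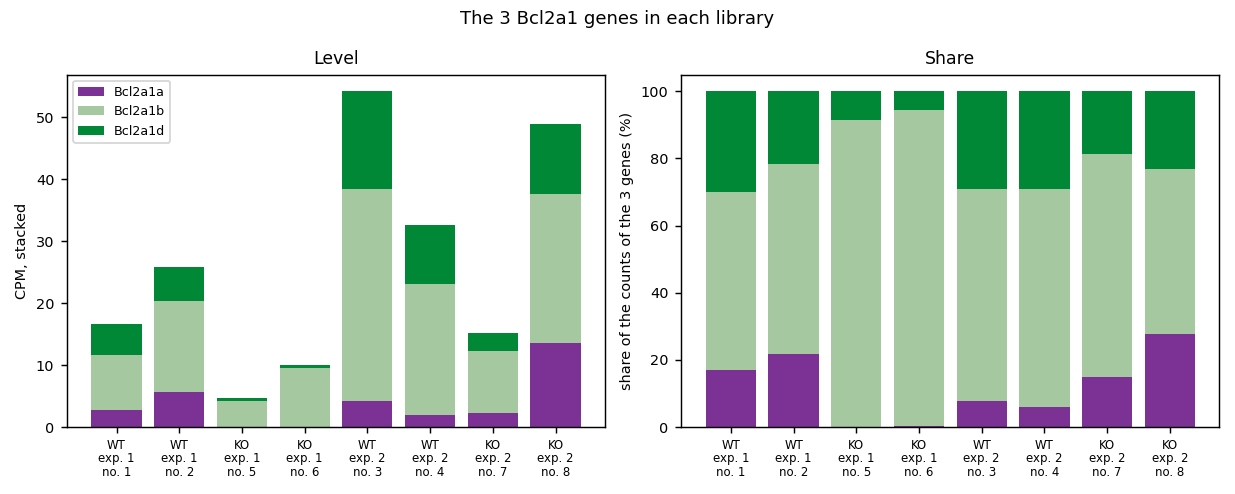
The 3 Bcl2a1 genes in each library, as stacked CPM (left) and as percent of their summed counts (right), with bars starting at 0. The KO libraries 5 and 6 of experiment 1 have the lowest sums and hold 0% and 0.263% Bcl2a1a, against 5.86% to 27.8% in the other libraries.

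The effectors changed less. Bax, which moves to mitochondria on a death signal, was measured at 97.3 and 102 CPM in WT and 89.7 and 89.4 CPM in KO of experiment 1, with no overlap and a log2 fold change of −0.26 ± 0.06 (adjusted p = 0.00427 by edgeR). In experiment 2 it was measured at 103 and 95.2 CPM in WT and 84.1 and 99.7 CPM in KO, with overlap and a log2 fold change of −0.17 ± 0.13 (adjusted p = 0.418). Upper-quartile scaling, which moved the median log2 fold change of all genes in experiment 1 from 0.02 to 0.13, took Bax to −0.15 (adjusted p = 0.0535), and the fit of 4 groups gave −0.25 (adjusted p = 0.0867).

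Bak1, the effector that resides in the mitochondrial membrane, was measured at 80.4 and 81.2 CPM in WT and 86.2 and 101 CPM in KO of experiment 1 (log2 fold change 0.10 ± 0.08, adjusted p = 0.276 by edgeR). In experiment 2 it was measured at 142 and 116 CPM in WT and 94.3 and 93.3 CPM in KO (−0.52 ± 0.16, adjusted p = 0.0825). KO was above WT in the first experiment and below it in the second, without overlap in either. The difference between the experiments was −0.64 ± 0.19 by the interaction test (adjusted p = 0.0282), and 6 of the 8 fits without 1 library put it at adjusted p of 0.0545 to 0.106, the exceptions being those without WT replicate 4 and KO replicate 5. In experiment 2 the call was made by DESeq2 (adjusted p = 0.0393), by the fit of 4 groups (adjusted p = 0.0198) and without a filter (adjusted p = 0.0278). In experiment 1 upper-quartile scaling made Bak1 higher in KO (0.22, adjusted p = 0.0342).

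The BH3-only members Bcl2l11 and Bbc3 were measured above WT in every KO library of the same experiment, with 2 libraries per group. The share of all genes that separate so was not counted. Across experiments the genotypes overlapped. WT replicate 2 lay above KO replicate 8 for Bcl2l11 (63.7 against 63.5 CPM) and above KO replicate 7 for Bbc3 (16.3 against 15.1 CPM). Bcl2l11, which encodes BIM, was measured at 58.8 and 63.7 CPM in WT and 72.2 and 76.6 CPM in KO of experiment 1, and at 44.8 and 61.2 CPM in WT and 66.1 and 63.5 CPM in KO of experiment 2. KO was above WT in both experiments without overlap. The log2 fold change was 0.17 ± 0.06 (adjusted p = 0.0430 by edgeR) and 0.24 ± 0.15 (adjusted p = 0.312), and the 2 values differed by 0.05 ± 0.17 (adjusted p = 0.836). The call in experiment 1 was lost with DESeq2 (adjusted p = 0.124), with the fit of 4 groups (adjusted p = 0.239), without a filter (adjusted p = 0.0725) and without WT replicate 1, WT replicate 2 or KO replicate 6 (adjusted p of 0.270, 0.0787 and 0.174).

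Bbc3, which encodes PUMA, was measured at 15.2 and 16.3 CPM in WT and 18.1 and 17.9 CPM in KO of experiment 1 (log2 fold change 0.09 ± 0.09, adjusted p = 0.425 by edgeR). In experiment 2 it was measured at 10.1 and 7.87 CPM in WT and 15.1 and 19.0 CPM in KO (0.86 ± 0.21, adjusted p = 0.0502). The 2 WT libraries of experiment 2 were the lowest of the 8, and KO was above WT without overlap in both experiments. In experiment 2 the threshold was passed with DESeq2 (adjusted p = 0.00935), with upper-quartile scaling (adjusted p = 0.0385), without a filter (adjusted p = 0.00647) and with the fit of 4 groups (adjusted p = 0.00742). The difference between the experiments was 0.75 ± 0.23 (adjusted p = 0.0364). It missed the threshold in the fits without WT replicate 1, 2 or 4 or KO replicate 5, 6 or 8 (adjusted p of 0.0677 to 0.103).

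**Figure D3:**
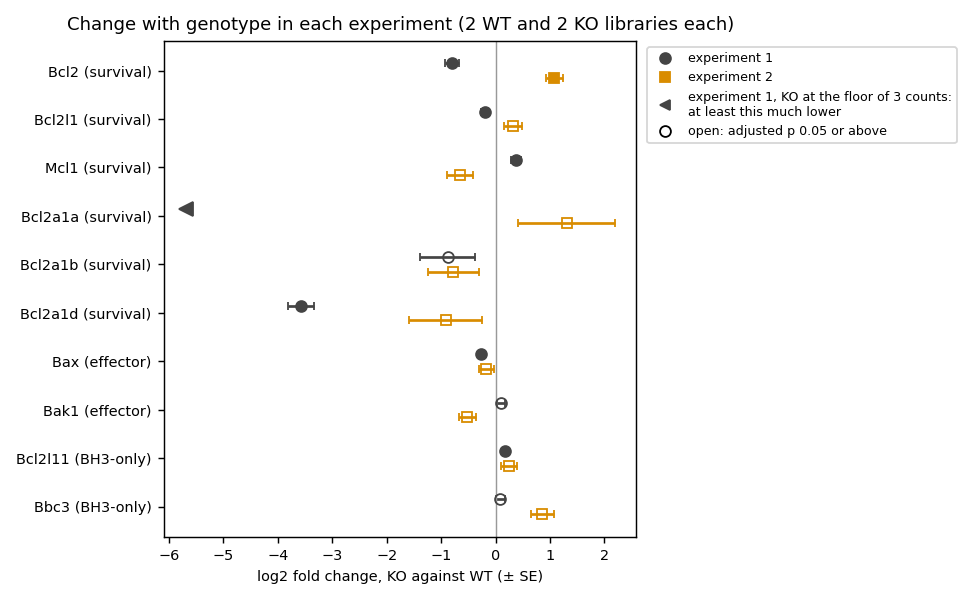
Log2 fold change of KO against WT with its SE for each member, in experiment 1 (grey circles) and experiment 2 (orange squares), each from 2 WT and 2 KO libraries. Filled symbols have an adjusted p under 0.05, and the triangle for Bcl2a1a marks the bound of 5.69 below 0 that the floor of 3 counts sets. Bcl2 is filled on both sides of 0.

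The 2 experiments were then set against each other. The change with genotype differed between them for 5 of the 9 members other than Bcl2a1a, namely Bcl2, Mcl1, Bcl2a1d, Bak1 and Bbc3, against 39.8% of 15618 genes tested for the same difference. With any single library left out, between 1 and 4 of these 9 were past the threshold, and without a filter 6 were. Fitted together with a term for experiment, no member was past the threshold by edgeR, with the smallest adjusted p at 0.117 for Bcl2a1d. At an unadjusted p under 0.05, 2 members were lower and 2 higher. DESeq2 called 1 member in that fit, Bcl2a1d (adjusted p = 0.00430), limma-voom called 0, and without KO replicate 8 edgeR called Bcl2a1d (−2.95, adjusted p = 0.0160). Of 14418 genes, 3.41% were lower and 3.72% higher in KO in that fit. By mean level, 5 of the 10 members were closest for the pair of WT in experiment 1 with KO in experiment 2 (Bcl2l1, Mcl1, Bcl2a1b, Bcl2a1d and Bcl2l11), the pair that was also closest for 40.1% of all genes. Upper-quartile scaling split the calls among members of experiment 1 into 3 lower and 3 higher, in place of 5 and 2, and the share of lower calls among all genes called moved from 50.1% to 38.2%.

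Across the 8 libraries, Bcl2a1a and Bcl2a1d had a Pearson correlation of 0.93 and Bcl2a1b and Bcl2a1d one of 0.88 on the log2 CPM scale. These genes share sequence, and the libraries share group means, so the values are descriptions. Mcl1 and Bcl2 ran in opposite directions with −0.78. Among 9062 genes of at least 3 log2 CPM, the gene most like Bcl2 was Vkorc1l1 (0.98), that most like Mcl1 was Gnb4 (0.99), and that most like Bcl2l1 was Ppp1r13b (0.92). Bcl2a1a was closest to Plagl2 (0.99) and Bcl2a1d to Lsm4 (0.99). Bax was closest to Alkbh1 (0.95), Bak1 to Tap2 (0.99) and Bbc3 to Trim8 (0.99).

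RefSeq start regions were found for all 10 members, with 15 windows in all. The CArG box, the motif of serum response factor, occurred on neither strand of the 15 windows, and in 535 of 32851 windows (1.63%) over all genes.

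The rest of the BCL2 family held 16 genes, of which 10 could be tested in the first experiment, with 2 lower and 4 higher in KO, against 28.4% and 28.2% of all genes. In the second experiment 11 were tested, with 2 lower and 1 higher, against 8.58% and 7.72% of all genes. Pmaip1, which encodes the BH3-only protein NOXA, an antagonist of MCL1, fell in both experiments. It was measured at 50.8 and 48.9 CPM in WT and 25.7 and 25.3 CPM in KO of experiment 1, and at 44.0 and 50.7 CPM in WT and 28.5 and 26.8 CPM in KO of experiment 2. All 4 KO libraries lay below all 4 WT libraries, with log2 fold changes of −1.08 ± 0.07 (adjusted p = 9.31e-06 by edgeR) and −0.83 ± 0.11 (adjusted p = 0.0159). Without KO replicate 8 the call of Pmaip1 in experiment 2 was lost (−0.77, adjusted p = 0.0722). With both experiments fitted together Pmaip1 was the only one of these genes past the threshold by edgeR (−0.94, adjusted p = 0.00242). Bmf (1.47, adjusted p = 0.0717 by edgeR) passed with DESeq2 (adjusted p = 0.00210), with limma-voom (adjusted p = 0.0401), for the mean of both contrasts in the fit of 4 groups (adjusted p = 0.000407) and without KO replicate 8 (adjusted p = 0.0361). Bnip3l (0.49, adjusted p = 0.0685 by edgeR) passed with DESeq2 (adjusted p = 0.0127), with upper-quartile scaling (adjusted p = 0.0490) and for the mean of both contrasts (adjusted p = 0.00781).

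Bmf, a BH3-only gene linked to loss of attachment, was measured at 5.17 and 5.42 CPM in WT and 30.1 and 28.3 CPM in KO of experiment 1. Its rise of 2.36 ± 0.10 (adjusted p = 1.66e-06 by edgeR) was not matched in experiment 2, where it was measured at 3.62 and 3.91 CPM in WT and 6.82 and 4.55 CPM in KO (0.54 ± 0.27, adjusted p = 0.219). The difference between the experiments passed the threshold (adjusted p = 0.00188). Bmf, too, was high in the 2 libraries with high fibroblast markers, and the part of those in it was not tested.

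Bid, whose product links death receptors to mitochondria, rose in KO of experiment 1 from 50.6 and 53.7 to 78.4 and 90.4 CPM (0.59 ± 0.07, adjusted p = 0.000285 by edgeR) and fell in KO of experiment 2 from 83.7 and 90.4 to 63.1 and 66.6 CPM (−0.48 ± 0.10, adjusted p = 0.0344). Like Bcl2 it passed the threshold in opposite directions, and without any 1 of its 4 libraries the call in experiment 2 was lost (adjusted p of 0.1004 to 0.126). Bnip3l, a mitophagy receptor, was higher in KO in both (0.25 and 0.71, adjusted p = 0.00915 and 0.0467), and the call was lost in experiment 1 without WT replicate 2 (adjusted p = 0.0577) and in the fit of 4 groups (adjusted p = 0.149), and in experiment 2 without WT replicate 3, KO replicate 7 or KO replicate 8. Bik, a BH3-only gene, fell in KO of experiment 1 (−1.49, adjusted p = 0.00421). Bad, another of that class, rose there (0.22, adjusted p = 0.0482 by edgeR). That call was lost with DESeq2 (adjusted p = 0.154), without a filter (adjusted p = 0.0677) and in the fit of 4 groups (adjusted p = 0.0649). It was also lost without WT replicate 1, WT replicate 2 or KO replicate 6 (0.16, 0.26 and 0.15). The survival gene Bcl2l2 and Bcl2l12, Bcl2l13 and Bnip3 were past the threshold in neither experiment, with log2 fold changes from −0.32 to 0.23. Bcl2a1c was tested in experiment 2 only (−0.85, adjusted p = 0.419). Bcl2l10, Bcl2l14, Bcl2l15, Bok and Hrk were tested in neither experiment, with at most 11 counts in any library.

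Downstream of mitochondria, 8 of 22 genes for caspases and death machinery were lower and 5 higher in KO of experiment 1, and 3 lower and 2 higher in experiment 2, counts to be read against the same shares of all genes. Cycs, which encodes cytochrome c, fell in experiment 1 (−1.56 ± 0.11, adjusted p = 1.87e-05 by edgeR), from 35.7 and 34.9 CPM in WT to 11.4 and 14.4 CPM in KO, but measured −0.01 in experiment 2 (adjusted p = 0.968). Vdac2, a channel of the outer membrane that holds BAK1, fell there by 0.56 on the log2 scale (adjusted p = 8.45e-05), while the executioner gene Casp6 rose (1.04, adjusted p = 9.36e-05) as did Casp12 (2.58, adjusted p = 0.000149). Casp12 was counted only 15 and 22 times in WT of that experiment, against 114 and 121 times in KO. Cycs and Vdac2 were lowest, and Casp6 and Casp12 highest, in the 2 libraries with high fibroblast markers, whose part in these changes was not tested. In experiment 2 the death receptor gene Fas fell (−1.86 ± 0.14, adjusted p = 0.00585) and so did Casp1, the inflammasome caspase (−0.85, adjusted p = 0.0161), while the apoptosome caspase gene Casp9 (0.64, adjusted p = 0.0251) and the signalling kinase gene Ripk1 (0.52, adjusted p = 0.0382) rose. Fas was measured at 41.1 and 29.7 CPM in WT and 9.30 and 8.67 CPM in KO of experiment 1, and at 61.1 and 53.2 CPM in WT and 15.9 and 16.9 CPM in KO of experiment 2. Fas, Casp1 and Mlkl, the pore-former of necroptosis, were the 3 genes of this list that were lower past the threshold in both experiments. Mlkl measured −0.31 and −1.255 (adjusted p = 0.0153 and 0.0215 by edgeR), and these changes differed between the experiments (adjusted p = 0.0154). With both experiments fitted together Mlkl missed the threshold (−0.77, adjusted p = 0.0898), and its calls were not followed through the alternatives. The call of Fas in experiment 1 was lost without KO replicate 5 or 6 (adjusted p of 0.0650 and 0.0616). In experiment 2 the call of Casp1 was lost without KO replicate 7 or 8 (adjusted p of 0.0522 and 0.0780), that of Casp9 without WT replicate 3, WT replicate 4 or KO replicate 8 (adjusted p of 0.0868 to 0.0941), and that of Ripk1 without any 1 of the 4 libraries (adjusted p of 0.0889 to 0.157).

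Among 10 genes for inhibitors of apoptosis and the caspase-8 inhibitor Cflar, 5 of 9 tested were lower and 3 higher in KO of experiment 1, and 4 of 10 tested were lower and 0 higher in experiment 2, again to be read against those shares. Cflar, which encodes FLIP, was measured at 389 and 368 CPM in WT and 208 and 215 CPM in KO of experiment 1, and at 816 and 872 CPM in WT and 319.8 and 280.5 CPM in KO of experiment 2. All KO libraries lay below all WT libraries, with log2 fold changes of −0.95 ± 0.06 (adjusted p = 1.21e-05 by edgeR) and −1.55 ± 0.15 (adjusted p = 0.00818). Birc3, which encodes the ubiquitin ligase cIAP2, fell in experiment 2 by 1.92 on the log2 scale (adjusted p = 0.00675) and in experiment 1 by 1.09 (adjusted p = 0.000600). Naip2 fell (−0.55, adjusted p = 0.000122) and Naip5 and Naip6, near-identical sensors of bacterial flagellin whose reads may be hard to tell apart, rose (0.49 and 0.47, adjusted p = 0.000640 and 0.000577) in experiment 1. With both experiments fitted together, Cflar (−1.24, adjusted p = 0.00727) and Birc3 (−1.49, adjusted p = 0.0109) were past the threshold, as were Fas (−1.96, adjusted p = 0.000983) and Casp1 (−0.67, adjusted p = 0.0132). Vdac2 also passed (adjusted p = 0.0404), but with any library other than KO replicate 8 left out its adjusted p was 0.0670 to 0.164. Without the experiment term the calls of Cflar, Birc3, Fas and Casp1 were lost (adjusted p of 0.160, 0.143, 0.142 and 0.162). The call of Casp1 was lost without WT replicate 1 or KO replicate 7 (adjusted p of 0.0505 and 0.0515). Pmaip1, Fas, Casp1, Mlkl, Cflar and Birc3 were thus lower past the threshold in both experiments, which is 1 of 10 genes tested in both in the rest of the family, 3 of 22 and 2 of 9 in the other lists, beside 2.37% of 14190 genes that were lower past it in both. Birc5, an inhibitor of apoptosis that also acts in cell division, passed in opposite directions (0.37, adjusted p = 0.00821, and −1.43, adjusted p = 0.0221).

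**Figure D4:**
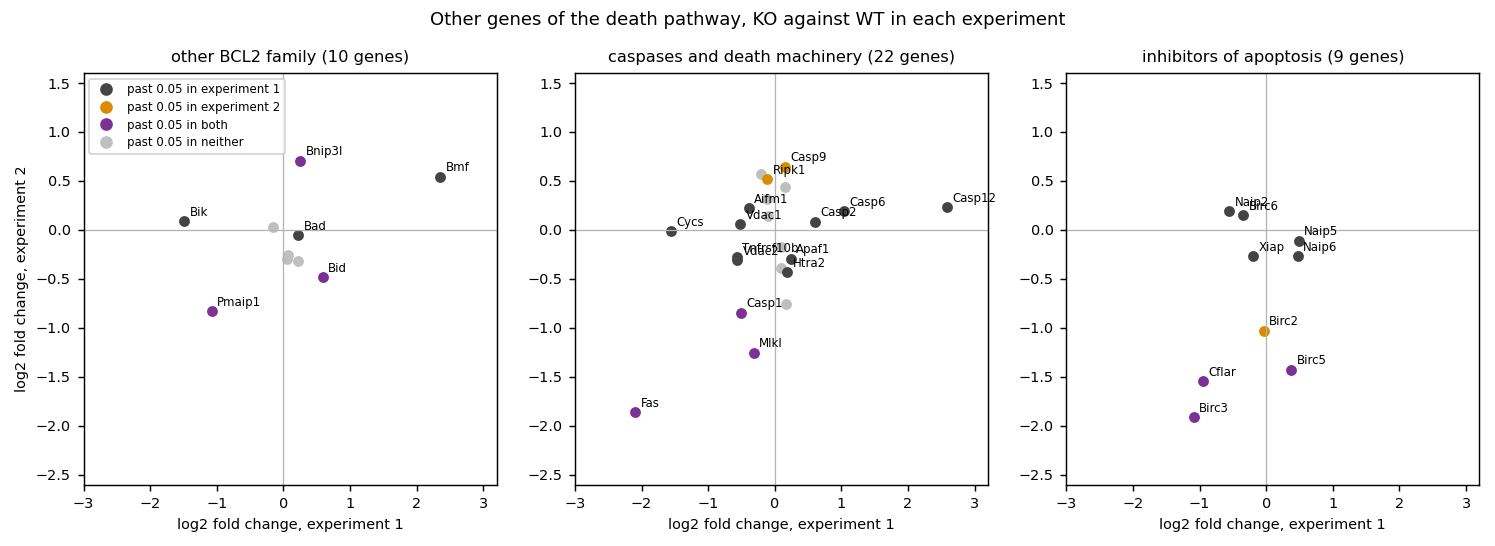
Log2 fold change of KO against WT in experiment 1 (horizontal) and experiment 2 (vertical) for other BCL2 family genes, caspases and death machinery, and inhibitors of apoptosis. Each point is 1 gene tested in both and colours mark an adjusted p under 0.05 in experiment 1 (grey), experiment 2 (orange), both (purple) or neither (light grey). Pmaip1, Fas, Casp1, Mlkl, Cflar and Birc3 lie at lower left, and Bid lies at lower right.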

How the data were processed

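The labels placed 8 libraries in genotype and experiment. The authors deposited whole-number raw counts per gene for each experiment, listed by symbol, and normalised counts, which were not used because they were scaled separately in each experiment. The submitters' processing notes name STAR 2.7.0f, Subread 1.6.4 with featureCounts, DESeq2 1.22.1 and GRCm38. Annotation, read length and strand setting are not given in the sources used here. The library kit (TruSeq) keeps strand. The labels do not say whether each library was a separate mouse, so p-values measure the spread between libraries.

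KO was compared with WT within each experiment by edgeR 4.0.16 in R 4.3.3 (filterByExpr, TMM scaling, quasi-likelihood F test, Benjamini-Hochberg adjustment over all genes tested, threshold 0.05). The difference between experiments was the interaction in a fit of all 8 libraries, and both were fitted together with an experiment term. The SE was taken as the size of the fitted change over the root of its F statistic. Correlations used log2 CPM with a prior count of 2. A group was at the floor when none of its libraries exceeded 3 counts. Alternatives were DESeq2 1.42.0, limma-voom (limma 3.58.1), upper-quartile scaling, 2 other filters, stricter thresholds, 1 library left out, the Bcl2a1 genes summed, fits of 4 groups and no experiment term. The fits were run on simulated counts with the same dispersion for every gene and for both experiments. The spread of these data differed between experiments, so those runs do not measure the error of the fits here.

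Positions came from GENCODE M21 and start regions from RefSeq (GRCm38.p6), aligned with MAFFT 7.526. Figures were drawn with matplotlib 3.10.9. Genes named were the members, every tested gene of the rest of the family, Mkl1, the 2 genes of smallest p per direction and experiment in each of the other lists, the most abundant gene of a marker list, and the 3 genes most like each member (the first is printed for 8 members, and some results are not reported here). Mlkl, Birc5, the values of Fas, Casp1 and Birc3 in experiment 1, and Adgre1, Itgam, Csf1r and Cd4 were added after their values were seen. The members and lists were chosen with earlier results of these data known.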

Additional observations from a re-analysis of the deposited data

Results flagged for a closer look

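Among the members and the rest of the family, a different effect of genotype in the 2 experiments was looked for by the interaction term in edgeR. It was found for 5 members and 3 other family genes, beside Bcl2a1a, whose value is no test. In the other lists it was found for 12 of 22 genes for caspases and death machinery, Casp1 and Mlkl included. The same held for 8 of 10 inhibitors of apoptosis, Cflar and Birc3 included. The difference of log2 fold changes (experiment 2 minus experiment 1) was 1.87 for Bcl2, −1.05 for Mcl1, 9.34 for Bcl2a1a, 2.64 for Bcl2a1d, −0.64 for Bak1 and 0.75 for Bbc3. The value for Bcl2a1a rests on 0 and 1 counts in KO of experiment 1 and depends on the prior count. In the rest of the family it was −1.09 for Bid, 1.56 for Bik and −1.83 for Bmf. That of Bik was lost with DESeq2 (adjusted p = 0.0823) and in the fits without WT replicate 1, 2, 3 or 4 or KO replicate 5 or 7 (adjusted p of 0.0512 to 0.0948). Such a difference was past the threshold for 39.8% of all genes tested, and the causes were not tested. The labels name nothing else that differs between the experiments.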

How the results depend on the processing

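The count of 7 members called in experiment 1 stayed between 5 and 7 under DESeq2, limma-voom, upper-quartile scaling, 2 other filters, the summed Bcl2a1 genes and each library left out. It includes Bcl2a1a, which had to differ, and without that gene 6 of 9 were called, 4 to 6 with each library left out and 2 in the fit of 4 groups. The count of 7 fell to 4 at an adjusted p under 0.01, to 2 with a change of at least 2-fold and to 3 in the fit of 4 groups. The count of 1 in experiment 2 rose to 4 with DESeq2 and in the fit of 4 groups, to 3 without a filter and to 2 with upper-quartile scaling or at least 10 counts in every library, fell to 0 at an adjusted p under 0.01, and ranged from 0 to 2 with 1 library left out (0 without KO replicate 7 or 8, 2 without WT replicate 4). The count of 6 members with a different effect, Bcl2a1a included, rose to 7 without a filter, fell to 4 with limma-voom and with at least 10 counts in every library and to 2 at an adjusted p under 0.01 and ranged from 1 to 5 with 1 library left out (1 without KO replicate 6, 2 without WT replicate 2 or KO replicate 5, 3 without WT replicate 1 or KO replicate 8). Without Bcl2a1a the count of 5 ranged from 1 to 4. With both experiments fitted together the count of 0 rose to 1 with DESeq2, to 3 for the mean of both contrasts in the fit of 4 groups, and to 1 without KO replicate 8. The causes were not tested.

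Directions turned only for values that had not passed the threshold. By setting they were Ripk1 in experiment 1 (0.00026 with upper-quartile scaling), Cycs in experiment 2 (0.028 with upper-quartile scaling, 0.0068 with limma-voom), the difference of Bcl2l11 between experiments (−0.013 with upper-quartile scaling) and Bcl2a1a in both together (0.083 with no experiment term). With 1 library left out, log2 fold changes ranged from −0.014 to 0.20 for Bak1 in experiment 1, and in experiment 2 from −0.48 to 2.09 for Bcl2a1a, −0.046 to 0.22 for Bik, −0.24 to 0.24 for Cycs and −0.42 to 0.68 for Casp12. Differences between experiments ranged from −0.65 to 0.77 for Bcl2a1b, −0.036 to 0.20 for Bax and −0.099 to 0.25 for Bcl2l11. With both fitted together they ranged from −0.14 to 0.46 for Bcl2, −0.053 to 0.17 for Bcl2l1, −0.30 to 0.092 for Mcl1 and −0.068 to 0.21 for Bid.

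No paired analysis was possible because the groups share no replicate number. Bcl2a1a, with 0 and 1 counts in KO of experiment 1, was at the limit of the depth there, and it was not tested with at least 10 counts in every library.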
